A study of Mus musculus with 32 samples.

Results

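Leydig cell mRNA on ribosomes was compared between mice that received luteinizing hormone (LH) after gonadotropin loss and untreated mice. The comparison used 5 of the 32 arrays of the series, chosen by their titles: 2 immunoprecipitates (IPs) collected 4 h after LH and 3 IPs of saline-treated mice. All 5 came from Cyp17iCre: RiboTag double heterozygotes, in which Cre recombinase adds a hemagglutinin (HA) tag to a ribosomal protein, so that an anti-HA IP of testis homogenate recovers tagged polysomes and their mRNA. The LH mice had first been given the GnRH antagonist acyline for 4 days and then 1 injection of purified human LH, whereas the saline mice had no antagonist. Acyline and the later LH are therefore both part of every difference from saline, and 2 IPs of acyline without LH and 2 IPs at 1 h after LH show the level before and during replacement. Each array was an Affymetrix Mouse Gene 1.0 ST array, and neither the age of the mice nor a processing batch is given in the labels.

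LH is released by the pituitary under the control of GnRH and binds a receptor on Leydig cells, the steroid-producing cells between the seminiferous tubules. The receptor raises cyclic AMP, which activates protein kinase A and the transcription factor CREB. An early set of transcription factor genes responds first, and later steps increase the delivery of cholesterol to mitochondria, where steroid synthesis begins.

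Markers placed the saline IPs with Leydig cells but not with Leydig cells alone, and the series has no input array of LH-treated mice. In the saline mice the IP exceeded the testis input for Star, the cholesterol carrier of the mitochondrial membrane, by 10.1-fold, and for Cyp11a1, the side-chain cleavage enzyme, by 8.34-fold. HA staining was also seen by the authors in scattered cells of the tubules of these mice, and transcripts of Sertoli and germ cells were measurable on every array. The summed linear signal of 10 Leydig markers lay between 57437 and 59579 in the saline IPs and between 52050 and 61518 in the LH 4 h IPs, so these ranges overlapped. With acyline alone the sum was 46000 to 48561, and at 1 h after LH it was 46725 to 50344. Since the sum differed between treatments, its overlap at 4 h does not show an equal share of Leydig cells. Equal amounts of RNA were put on each array, so each value is a share of the recovered RNA. In a bulk sample of this kind, fewer cells of a type and less RNA per cell cannot be told apart.

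Values are log2 signals after RMA normalization. Signals of different probe sets were not compared with each other, except to choose the brightest probe set of each gene. Marker sums add linear signals over probe sets, so the brightest members weigh most in them. A gene was called higher or lower where limma, fitted to all 9 Leydig IPs, gave a Benjamini-Hochberg adjusted p under 0.05 and a difference of at least 1.5-fold. The labels do not say that replicates came from separate mice, so p-values measure the spread between these arrays. The 2 LH 4 h arrays differed from each other more than the saline arrays did: the standard deviation of their difference over probe sets was 0.331, against 0.239 to 0.249 for pairs of saline arrays. The median of all probe sets was 6.397 and 6.408 on the LH 4 h arrays and 6.476 to 6.499 on the saline arrays. Over the probe sets tested the order was the other way, with 7.717 and 7.72 on the LH 4 h arrays and 7.683 to 7.705 on the saline arrays. Replicate 1 of LH 4 h had the lowest mean correlation with the saline arrays, 0.976, and the part of this array in the results was examined by leaving it out.

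At 4 h after LH the mRNA on ribosomes departed from the untreated state on both sides. Of 35556 probe sets deposited, 24461 passed a linear signal of 50 on at least 1 array and represented 15382 named genes. Of these genes, 157 (1.02%) were higher and 173 (1.12%) were lower than in saline mice. All 157 and all 173 had LH 4 h values that did not overlap saline, so lack of overlap sets no called gene apart. The share of all tested genes without overlap was not counted, so lack of overlap adds nothing to a call below. The median fold of the called genes was 1.63 for those above saline and 1.65 for those below it, and 25 and 33 of them passed 2-fold. Among probe sets, 385 were higher and 427 lower, so that 47.4% of the calls were higher. This split moved to 678 higher and 278 lower (70.9% higher) when each array was centred on its median over all probe sets. That centring moved the median difference over all genes from 0.014 to 0.101. The gene counts also depended on single arrays, with 59 higher and 112 lower without replicate 1 of LH 4 h and 289 and 153 without replicate 2. Leaving out saline replicate 1, 2 or 3 gave 56 and 76, 84 and 90, or 63 and 89.

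**Figure D1:**
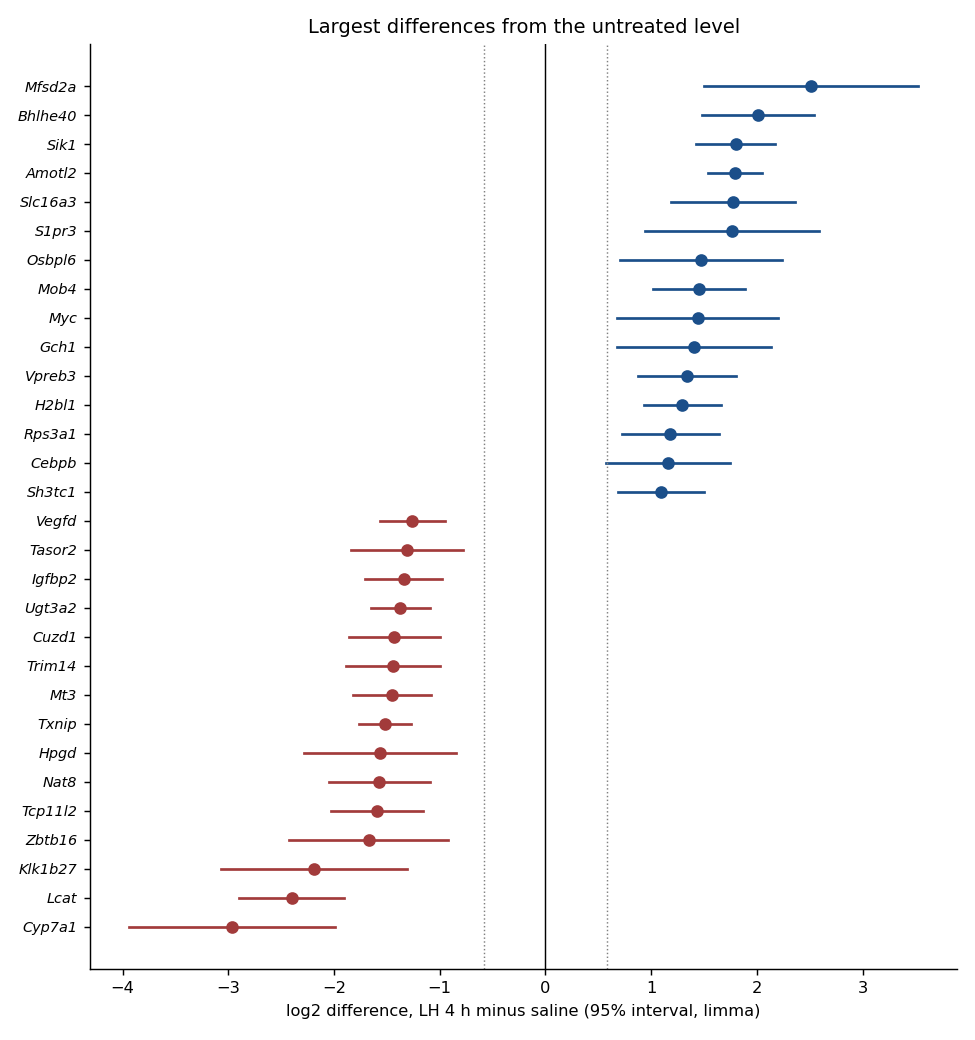
Difference between LH 4 h and saline (log2, x axis) for the 15 called genes with the largest rise and the 15 with the largest fall. Points are fitted differences and bars are their 95% intervals from limma. Mfsd2a stands farthest to the right at 2.51. Cyp7a1 stands farthest to the left, but its LH 4 h signals, like the saline signals of Osbpl6 and Gch1, were below a linear signal of 50, so the position of these 3 points is not a measured size.

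The plot of the largest differences ranks the transcripts farthest from the untreated level. Mfsd2a, which encodes a lysophospholipid transporter, measured 6.58, 7.12 and 7.19 in saline and 10.31 and 8.64 after LH. Both LH arrays lay above all saline arrays, and the rise was 5.71-fold (log2 difference 2.51, SE 0.444, limma adjusted p = 0.0201). The call was lost without replicate 1 of LH 4 h and without any 1 saline array. Slc16a3, encoding the lactate exporter MCT4, read 9.44, 9.32 and 9.99 in saline and 11.68 and 11.03 after LH. The groups did not overlap, and the transcript was 3.42-fold higher (log2 difference 1.77, SE 0.258, limma adjusted p = 0.0107), a call lost without replicate 1 of LH 4 h. In acyline mice Slc16a3 read 8.23 and 8.0, below saline by 1.47 on the log2 scale without passing the test (adjusted p = 0.0819). Slc16a3 therefore stood 3.24 log2 units above acyline at 4 h (adjusted p = 0.00621) and 2.70 above the 1 h level (adjusted p = 0.0227).

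Sik1, Bhlhe40 and Amotl2 were among the largest rises. Sik1 encodes a salt-inducible kinase that restrains CREB coactivators, and its values were 7.51, 7.64 and 7.66 in saline and 9.49 and 9.32 at 4 h after LH. The LH values were separate from the saline values, 3.49-fold higher (log2 difference 1.80, SE 0.164, limma adjusted p = 0.00949). At 1 h after LH, Sik1 read 10.12 and 9.52, and the difference between 4 h and 1 h did not pass the test (adjusted p = 0.304). Bhlhe40, a basic helix-loop-helix repressor linked to the circadian clock, read 6.49, 6.91 and 6.48 in saline and 8.78 and 8.50 after LH. The groups were again apart, with a 4.04-fold rise (SE of the log2 difference 0.231, limma adjusted p = 0.0101). Amotl2, an angiomotin of the Hippo pathway, rose 3.46-fold from 7.60, 7.72 and 7.57 to 9.42 and 9.42 (adjusted p = 0.00271), and it was already higher than saline with acyline alone (0.94, adjusted p = 0.0305). The calls of Sik1, Bhlhe40 and Amotl2 held whichever of the 9 arrays was left out.

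Myc and Cebpb, which encode transcription factors of growth and of differentiation, were also above saline. Myc read 6.01, 6.41 and 6.16 in saline and 8.23 and 7.03 after LH, and Cebpb read 7.30, 7.34 and 7.18 in saline and 8.49 and 8.38 after LH. Neither gene's groups overlapped, and the differences were 1.44 for Myc (limma adjusted p = 0.0432) and 1.16 for Cebpb (adjusted p = 0.0385). Acyline alone already stood at 7.57 and 6.88 for Myc and at 8.09 and 8.29 for Cebpb. From acyline to LH 4 h the differences of 0.41 and 0.24 did not pass the test (adjusted p = 0.591 and 0.686). The call against saline was lost for Myc without any 1 array other than LH 4 h replicate 2, and for Cebpb without any 1 array other than those of LH 1 h.

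Of the 41 immediate early and cyclic AMP-induced factors measured, 3 were higher, 0 were lower, and the median difference was 0.215 against 0.014 over all genes. The called members were Myc, Cebpb and Tob1, an antiproliferative gene that was 0.72 higher (adjusted p = 0.0103), and none of the 3 was called without replicate 1 of LH 4 h. The list had 1 higher member without either acyline array or any saline array. Nr4a1, an orphan nuclear receptor induced by LH, measured 7.69, 8.01 and 7.76 in saline, 11.31 and 10.17 at 1 h and 9.11 and 8.79 at 4 h. The 4 h values were above every saline value but missed the threshold (log2 difference 1.13, adjusted p = 0.055). Nr4a1 was called in 5 of 17 alternative settings, among them median-centred arrays (adjusted p = 0.0398) and a fit of the 2 groups alone (adjusted p = 0.0357). Egr1, an early zinc finger factor, read 6.10, 6.35 and 5.95 in saline and 6.89 and 6.36 at 4 h (adjusted p = 0.66). Among 37 genes of the LH receptor and cyclic AMP machinery, the called members were Sik1 and Pde10a, encoding a phosphodiesterase that breaks down cyclic nucleotides. Pde10a was 0.71 higher (adjusted p = 0.0447), and this call was lost without LH 4 h replicate 1, either acyline array or any saline array.

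**Figure D2:**
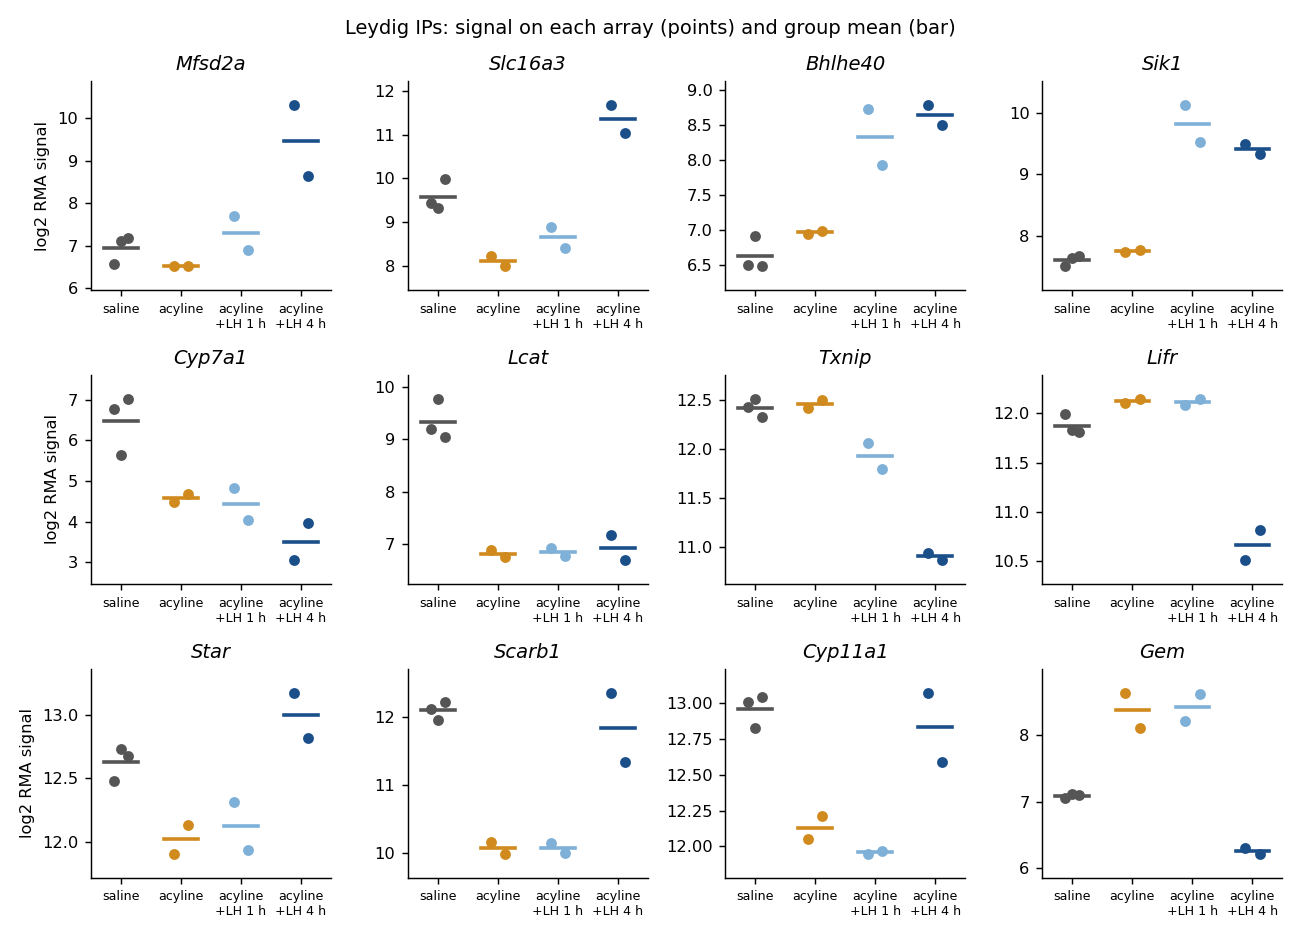
Log2 signal on each Leydig IP array (y axis) in saline, acyline, LH 1 h and LH 4 h mice (x axis), with 1 panel per gene and a bar at each group mean. Slc16a3 and Mfsd2a stand highest at 4 h, whereas Txnip and Lifr stand lowest at 4 h.

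The plot of signals by array places the 4 h values beside acyline and LH 1 h. Hvcn1, a voltage-gated proton channel gene, followed the order seen for Slc16a3: 6.92, 6.71 and 6.60 in saline, 5.89 and 5.87 with acyline, 6.08 and 6.06 at 1 h, and 8.02 and 7.62 at 4 h. The 4 h values lay above all others. Hvcn1 was 2.11-fold above saline (log2 difference 1.07, SE 0.138, limma adjusted p = 0.0101) and 1.75 log2 units above the 1 h level (adjusted p = 0.00994). S1pr3, a sphingosine-1-phosphate receptor gene, read 8.01, 9.44 and 8.47 in saline and 10.58 and 10.23 after LH. The LH arrays exceeded all 3 saline arrays, which themselves spread widely, and the rise was 3.40-fold (adjusted p = 0.031). This call was lost in 6 of 9 fits, those without either acyline array, either LH 4 h array, or saline replicate 1 or 3. The other genes among the 15 largest rises were Osbpl6, Gch1, Mob4 (1.45), Vpreb3 (1.34), H2bl1 (1.30), Rps3a1 (1.18) and Sh3tc1 (1.09), with values in log2 units above saline. Osbpl6 and Gch1 were below a linear signal of 50 on all 3 saline arrays, so the sizes of their rises were not measured. Their mean LH 4 h signals stood 2.23-fold and 1.61-fold above a linear signal of 50. Both calls (adjusted p = 0.0414 each) were lost without any 1 array other than LH 4 h replicate 2, and the fitted differences ranged over the alternatives from 0.76 to 2.18 and from 0.75 to 2.06.

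Lcat, which esterifies cholesterol on lipoproteins, measured 9.20, 9.77 and 9.04 in saline and 7.17 and 6.70 after LH, a fall of 5.27-fold (adjusted p = 0.00949). Its acyline values of 6.88 and 6.76 overlapped the LH values. Klk1b27, a glandular kallikrein gene, fell 4.57-fold from 10.83, 10.26 and 9.81 to 8.55 and 7.67 (adjusted p = 0.0199), a call lost without LH 4 h replicate 2, saline replicate 1 or saline replicate 2. Cyp7a1, known in liver as the rate-limiting enzyme of bile acid synthesis from cholesterol, read 6.78, 5.64 and 7.01 in saline and 3.06 and 3.96 after LH. Both LH values and that of saline replicate 2 were below a linear signal of 50, so the size of the fall was not measured. The mean saline signal of Cyp7a1 stood 1.78-fold above a linear signal of 50. Cyp7a1 was called lower after LH than in saline (limma adjusted p = 0.0105), a call lost without replicate 1 of LH 4 h.

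Other genes were below saline at 4 h without being called lower with acyline. Txnip, the thioredoxin-interacting protein gene that restrains glucose uptake, read 12.42, 12.51 and 12.33 in saline, 12.42 and 12.50 with acyline, and 10.94 and 10.86 at 4 h. The 4 h values stood apart from both groups. The transcript was 2.87-fold below saline (log2 difference -1.52, SE 0.108, limma adjusted p = 0.00409), lower than acyline by a log2 difference of -1.56 (adjusted p = 0.00573) and lower than the 1 h level by -1.03 (adjusted p = 0.0328). Lifr, the leukemia inhibitory factor receptor gene, read 11.99, 11.83 and 11.81 in saline, 12.10 and 12.14 with acyline, and 10.52 and 10.82 at 4 h. The fall from saline was 2.31-fold (adjusted p = 0.00965), with no overlap. Zbtb16, a zinc finger repressor gene that also marks spermatogonia, fell 3.18-fold from 9.12, 7.89 and 9.09 to 6.90 and 7.16 (adjusted p = 0.0283), a call lost without either LH 4 h array or saline replicate 1 or 3. Trp53inp1, a stress gene downstream of p53, read 11.11, 10.86 and 11.03 in saline and 10.11 and 9.91 after LH (log2 difference -0.99, adjusted p = 0.0101), and its acyline values of 11.83 and 11.76 lay above both groups.

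The rest of the 15 largest falls were Tcp11l2 (-1.59), Nat8 (-1.57), Hpgd (-1.56), Mt3 (-1.45), Trim14 (-1.44), Cuzd1 (-1.43), Ugt3a2 (-1.37), Igfbp2 (-1.34), Tasor2 (-1.31) and Vegfd (-1.26), as log2 differences from saline. Hpgd encodes the enzyme that inactivates prostaglandins, Ugt3a2 a glycosyltransferase, Igfbp2 a binding protein for insulin-like growth factors and Vegfd a vascular growth factor. The Hpgd call was lost without either acyline array or any 1 saline array, and its fitted difference ranged from -2.23 to -0.90 over the alternatives. Of the 15 largest rises, 5 were called whichever array was left out, and of the 15 largest falls, 9 were.

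Promoter sequence is shown for 4 genes whose transcripts differed from saline: Cebpb and Slc16a3, which rose, Rpl26, a ribosomal protein gene that rose, and Txnip, which fell. Each line is the 250 bases upstream of the annotated start in RefSeq for GRCm38.p6, 5′ to 3′ on the strand of the gene, which is the plus strand for all 4. The regions are chr2:167688665-167688914 for Cebpb, chr11:120948817-120949066 for Slc16a3, chr11:68901316-68901565 for Rpl26 and chr3:96557707-96557956 for Txnip. Capitals mark matches on either strand to the cyclic AMP response element TGACGTCA or its core TGACG, and in Txnip to the ETS motif CCGGAA.
Cebpb: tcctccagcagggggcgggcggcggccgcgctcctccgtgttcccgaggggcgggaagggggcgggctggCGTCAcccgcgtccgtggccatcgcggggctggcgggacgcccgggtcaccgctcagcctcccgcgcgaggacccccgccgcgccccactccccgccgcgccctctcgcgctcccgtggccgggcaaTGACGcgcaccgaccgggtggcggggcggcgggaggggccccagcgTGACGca
Slc16a3: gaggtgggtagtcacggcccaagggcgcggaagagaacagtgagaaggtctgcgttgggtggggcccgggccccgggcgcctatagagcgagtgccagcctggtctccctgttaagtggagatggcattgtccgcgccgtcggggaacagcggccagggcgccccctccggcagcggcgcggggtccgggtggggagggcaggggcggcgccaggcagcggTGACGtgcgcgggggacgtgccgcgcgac
Rpl26: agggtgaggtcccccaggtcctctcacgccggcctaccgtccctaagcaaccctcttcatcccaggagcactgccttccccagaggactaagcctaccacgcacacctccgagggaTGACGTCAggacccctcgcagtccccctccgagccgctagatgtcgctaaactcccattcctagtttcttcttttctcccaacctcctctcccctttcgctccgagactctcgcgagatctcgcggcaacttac
Txnip: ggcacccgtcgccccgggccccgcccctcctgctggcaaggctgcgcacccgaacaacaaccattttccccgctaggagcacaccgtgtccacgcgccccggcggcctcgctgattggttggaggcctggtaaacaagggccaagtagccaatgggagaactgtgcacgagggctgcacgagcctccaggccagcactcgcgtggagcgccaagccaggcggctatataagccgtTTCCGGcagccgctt

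The Cebpb window held 3 matches to TGACG, the Slc16a3 window 1, and the Rpl26 window 1 full TGACGTCA. The same windows were available for 130 of the 157 genes above saline, 114 of the 173 below it and 12205 of the 15382 tested. A gene was counted once if the window of any of its annotated starts matched, so genes with more starts had more chances to match. TGACGTCA, which contains TGACG, occurred in 6 (4.62%) of the genes above saline, in 0 of those below it, and in 336 (2.75%) of all genes with windows. TGACG occurred in 45 (34.6%), 23 (20.2%) and 3370 (27.6%). AAGGTCA, the site of Nr5a1 and its relatives, occurred in 4 (3.08%), 3 (2.63%) and 465 (3.81%). CACGTG, the E-box, occurred in 9 (6.92%), 10 (8.77%) and 1132 (9.27%), and CCGGAA in 25 (19.2%), 16 (14%) and 2620 (21.5%). These letters describe the windows and do not show that a factor binds there.

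Of the steroidogenic genes, 1 of 14 was called at 4 h. Star read 12.48, 12.73 and 12.68 in saline, 11.90 and 12.13 with acyline, and 13.18 and 12.82 at 4 h. The LH values were above all saline values, but the difference of 0.37 did not pass the test (95% interval 0.01 to 0.73, limma adjusted p = 0.197). Cyp11a1 read 13.01, 12.82 and 13.04 in saline and 13.07 and 12.59 at 4 h, and its groups overlapped (difference -0.13, 95% interval -0.46 to 0.21, adjusted p = 0.64). Its acyline values were 12.05 and 12.21. Cyp17a1, the enzyme that makes androgen precursors, differed from saline by 0.07 (adjusted p = 0.726).

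Over the 14 steroidogenic genes measured, 0 were higher, 1 was lower and the median difference was 0.054, where it was -0.197 with acyline alone. At an unadjusted p under 0.05 in limma, 3 were higher and 4 lower. The lower member was Hsd3b6, an adult Leydig isoform of 3-beta-hydroxysteroid dehydrogenase, at 12.95, 12.68 and 12.91 in saline and 12.20 and 12.23 after LH. Its log2 difference of -0.63 (adjusted p = 0.0221) was lost when arrays were centred on their medians and without either LH 4 h array or saline replicate 1 or 3. None of the 22 genes of cholesterol synthesis was called, with a median difference of 0.012 at 4 h and -0.158 with acyline. At an unadjusted p under 0.05 in limma, 2 of these 22 were lower and 0 higher. The LH 4 h arrays disagreed on this pathway, since its median was -0.305 without replicate 1 and 0.278, with 2 genes higher, without replicate 2.

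Genes that move cholesterol in and out of cells fell in part. Of 21 genes for cholesterol uptake, esters and transfer, 3 were lower and 0 were higher, with a median difference of -0.117. Cd36, a scavenger receptor gene, fell by 0.74 on the log2 scale (adjusted p = 0.0103), and Lipa, the lysosomal lipase gene, fell by 0.68 (adjusted p = 0.0101). Abca1, the cholesterol efflux pump gene, fell by 0.82 (adjusted p = 0.019), a call lost without LH 4 h replicate 2 or saline replicate 3. Scarb1, the receptor gene for high-density lipoprotein, measured 12.11, 11.95 and 12.21 in saline, 10.16 and 9.98 with acyline, and 12.35 and 11.33 at 4 h. The LH values enclosed the saline values (difference -0.25, 95% interval -0.82 to 0.32, adjusted p = 0.581) and were above acyline by 1.77 (adjusted p = 0.0429). Stard5, a sterol transfer protein gene, was 0.36 above saline without passing the test (adjusted p = 0.386).

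Ribosomal protein transcripts stood above the untreated level as a family. Of 60 cytosolic ribosomal protein genes, 14 were higher and 0 lower than saline (54 and 0 at an unadjusted p under 0.05 in limma), 59 had a positive difference, and their median difference was 0.438. Rps12 read 9.57, 9.23 and 9.30 in saline and 10.25 and 10.57 after LH, a rise of 1.04 (SE 0.135, limma adjusted p = 0.0101) with no overlap. Rpl36a read 9.18, 8.94 and 8.82 in saline and 9.97 and 9.86 after LH, a rise of 0.94 (adjusted p = 0.0101). Rps21 was 0.98 above saline (adjusted p = 0.0251) and Rpl26 0.63 (adjusted p = 0.0304). The other called members were Rpl10a, Rpl14, Rpl23a, Rpl28, Rps4x, Rps10, Rps13, Rps28 and Rps29, between 0.59 and 0.89, together with Rps3a1. For Rps10 and Rps13 2 of 3 probe sets were called, and for Rps28 6 of 7.

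The ribosomal count was 5 without LH 4 h replicate 1, 6 without saline replicate 2, 7 without saline replicate 3 and 12 to 14 without any other array. It was 27 with median-centred arrays and 10 with quantile normalization, and the median difference was 0.525 and 0.421 under these scalings. Ribosomal protein genes share sequence with many processed copies in the genome, so their probe sets can read more than 1 locus and the values of single members are uncertain. Several of them had more than 1 probe set: all 14 for Rps12 were called, between 0.967 and 1.092, and all 13 for Rpl23a, between 0.611 and 0.887. With acyline alone 0 of the 60 genes were called, and the median difference from saline was 0.178. At 1 h after LH that median was 0.284. Between LH 4 h and acyline 0 of the 60 were called, and between 4 h and 1 h also 0.

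**Figure D3:**
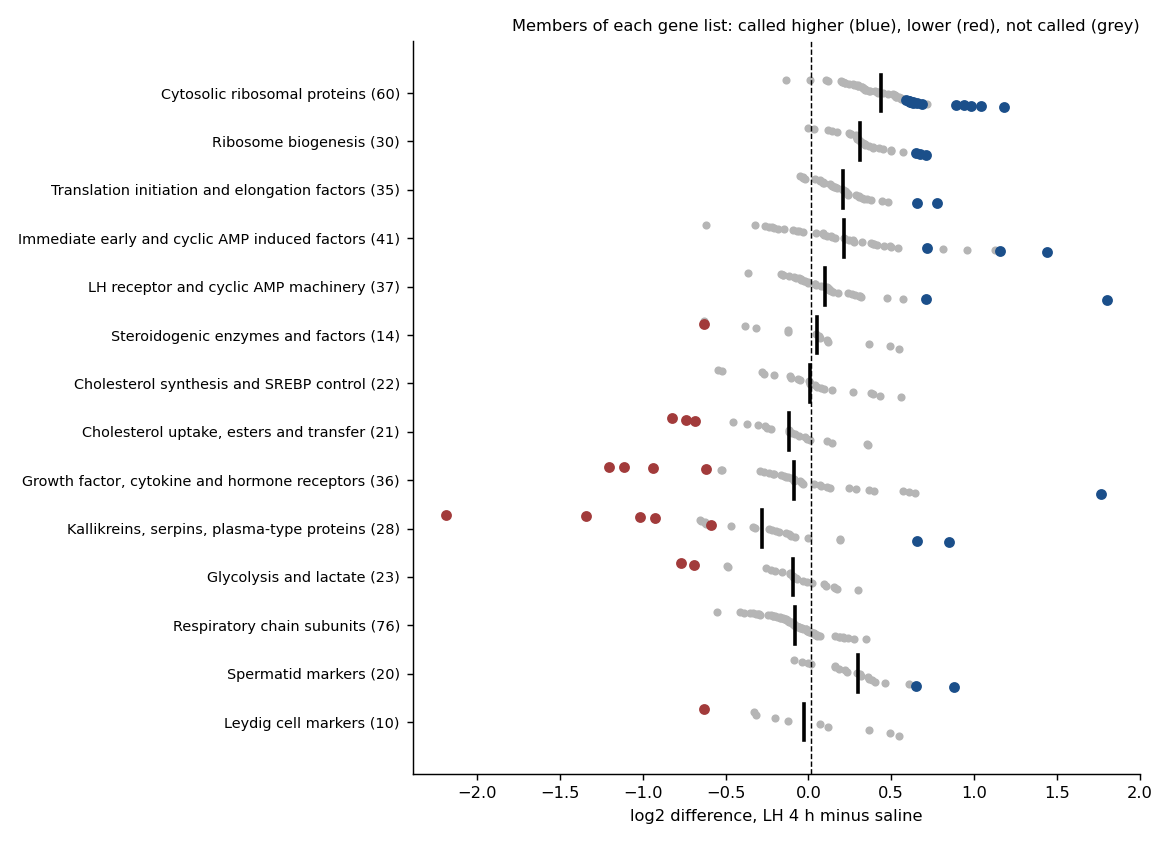
Difference between LH 4 h and saline (log2, x axis) for the members of 14 gene lists (y axis, members measured in parentheses), with 1 point per gene, called genes in colour, a black bar at each list's median and a dashed line at the median of all genes. Cytosolic ribosomal proteins and ribosome biogenesis genes lie right of the dashed line, with medians of 0.438 and 0.312.

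The plot of gene lists shows that other parts of the translation apparatus lay on the same side. Of 30 ribosome biogenesis genes, 3 were higher and 0 lower, and the median difference was 0.312. These were Nop56, a core protein of small nucleolar ribonucleoproteins (0.71, limma adjusted p = 0.0425), Rrp1b (0.68, adjusted p = 0.0154) and Rrp9 (0.65, adjusted p = 0.0295). None of these 3 was called without LH 4 h replicate 1, saline replicate 1 or saline replicate 3, and without LH 4 h replicate 2 the list had 7 higher members and a median of 0.49. In a list of 35 translation initiation and elongation factor genes that also held Tpt1, which is not such a factor, 2 were higher and 0 lower. The median of this list was 0.207. Eif3f, a subunit of an initiation factor, read 9.89, 9.77 and 9.78 in saline and 10.62 and 10.56 after LH, and Tpt1 read 11.48, 11.36 and 11.46 in saline and 12.09 and 12.09 after LH. Neither overlapped, and both rises (0.78 and 0.65, adjusted p = 0.0101 each) were called without any 1 of the 9 arrays, although 1 of the 4 probe sets of Tpt1 was not called. Atf4, a transcription factor of the amino acid response, was 0.66 higher (adjusted p = 0.0161) and was the called member among 30 ATF4 targets and tRNA synthetases, whose median was 0.066. That call was lost without LH 4 h replicate 1 or saline replicate 1 or 3. None of 26 heat shock and chaperonin genes was called by limma (median 0.124, with 4 higher and 0 lower at an unadjusted p under 0.05). None of 76 respiratory chain subunits was called either (median -0.082, or 0.005 with median-centred arrays, with 1 higher and 10 lower at an unadjusted p under 0.05).

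Receptors and growth signals were mostly below saline where they were called. Of 36 growth factor, cytokine and hormone receptor genes, 4 were lower and 1 was higher, and the median of -0.085 became 0.002 with median-centred arrays. Without LH 4 h replicate 1, 2 were lower and 0 higher, and without replicate 2, 3 were lower and 4 higher. Beside Lifr, the lower members were Pdgfra, Tgfbr3 and Ptch1. Pdgfra, the platelet-derived growth factor receptor of the Leydig lineage, read 10.52, 10.61 and 10.19 in saline and 9.13 and 9.51 after LH (difference -1.11, adjusted p = 0.0105). Tgfbr3, the inhibin and TGF-beta co-receptor, read 11.51, 11.52 and 11.28 in saline and 10.27 and 10.72 after LH (difference -0.94, adjusted p = 0.0131). Both stood apart from saline, and both calls were lost without LH 4 h replicate 1. Ptch1, the hedgehog receptor, fell by 0.62 (adjusted p = 0.0251), a call lost with median-centred arrays and without LH 4 h replicate 2 or any saline array. The higher member was S1pr3. Fgfr2, Fgfr4 and S1pr1 differed from saline by 0.61, 0.57 and 0.07 and were not called (adjusted p = 0.204, 0.204 and 0.884).

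Of 41 genes for secreted signals, 2 were lower, Bmp4 and Vegfd, and 0 were higher (median -0.13). Bmp4, a bone morphogenetic protein, read 7.27, 7.32 and 7.29 in saline and 5.79 and 6.32 after LH. This was a fall of 2.36-fold without overlap (adjusted p = 0.019), and it was lost without LH 4 h replicate 1 or any saline array. Vegfd read 10.83, 10.91 and 10.69 in saline and 9.57 and 9.53 after LH (difference -1.26, adjusted p = 0.0101), and it was called whichever array was left out.

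In a list of 34 nuclear receptor and T-box repressor genes that also held Id2, Ppara and Id2 were higher and Nr2f2 and Tbx3 were lower. The median of this list was -0.051 and became 0.037 with median-centred arrays. Ppara, the fatty acid-sensing receptor, read 8.0, 8.06 and 7.84 in saline and 9.01 and 8.82 after LH (difference 0.95, adjusted p = 0.0101). It did not overlap and was called whichever array was left out. Nr2f2, encoding the receptor COUP-TFII, read 9.49, 9.63 and 9.41 in saline and 8.87 and 8.71 after LH (difference -0.72, adjusted p = 0.0154), a call lost without LH 4 h replicate 2 or saline replicate 2. Id2, an inhibitor of helix-loop-helix factors, was 0.85 higher (adjusted p = 0.0188). Tbx3, a T-box repressor, stood at 8.64, 8.89 and 8.56 in saline, 9.26 and 9.46 with acyline, and 8.15 and 8.06 at 4 h. Its acyline values lay above every saline value, but Tbx3 was not called between acyline and saline. At 4 h it differed by -0.59 from saline (limma adjusted p = 0.0293) and by -1.26 from acyline (adjusted p = 0.0141). The Tbx3 call against saline was lost with median-centred arrays and without either LH 4 h array or any saline array, and that of Id2 without either LH 4 h array or saline replicate 1 or 2.

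Tbx2, Thrb, Nr1d1 and Nr1d2 differed from saline by 0.13, -0.50, -0.72 and -0.33 and were not called (adjusted p = 0.603, 0.105, 0.237 and 0.212). Nr0b2, a nuclear receptor that lacks a DNA-binding domain, was lower by -0.55 with an adjusted p of 0.0458 but fell short of 1.5-fold. Of 19 clock genes, 2 were higher and 0 lower (median 0.027): Bhlhe40 and Per2, a clock repressor at 6.95, 7.62 and 6.91 in saline and 8.04 and 8.05 after LH. The Per2 difference of 0.88 (adjusted p = 0.0374) was lost without either acyline array, either LH 4 h array, or saline replicate 1 or 3.

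Genes of fuel handling were called on both sides of saline. Of 23 glycolysis and lactate genes, 2 were lower and 0 higher (median -0.091). Over all genes tested, 1.12% were lower and 1.02% higher. Aldoc, an aldolase, read 11.78, 11.77 and 11.70 in saline and 11.24 and 10.88 after LH (difference -0.69, adjusted p = 0.0161). Pdk4, the kinase that inhibits pyruvate dehydrogenase, read 9.06, 8.95 and 9.20 in saline and 8.49 and 8.11 after LH (difference -0.77, adjusted p = 0.0238). Neither overlapped. Both calls were lost without LH 4 h replicate 2, saline replicate 1 or saline replicate 2, and that of Pdk4 also without saline replicate 3. Scd1, a fatty acid desaturase, was the lower member among 30 fatty acid genes (difference -0.61, adjusted p = 0.0318; list median -0.116), a call lost with median-centred arrays and without LH 4 h replicate 2, either acyline array or any saline array. Without LH 4 h replicate 2 this list had 1 higher member, 0 lower members and a median of 0.014. Slc16a3 was the higher member among 24 amino acid and monocarboxylate transporters (median -0.059, or 0.028 with median-centred arrays), where 0 were called without LH 4 h replicate 1 and 4 without replicate 2. Atf6, a sensor of endoplasmic reticulum stress, was the called member of 20 genes of that response and fell by 0.75 (adjusted p = 0.0101). Txnip was the lower member among 38 redox and detoxification genes (median -0.102). Without LH 4 h replicate 1, 3 of these were lower, and without replicate 2, 5 were higher and 1 lower. None of 18 aquaporin and ion-handling genes was called by limma, although 3 were higher and 3 lower at an unadjusted p under 0.05. Aqp2, a water channel, read 10.60, 9.88 and 10.33 in saline, 8.91 and 8.77 with acyline and 11.54 and 10.36 at 4 h (adjusted p = 0.269 against saline).

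Secreted proteins of a plasma or protease type had the lowest median of the lists, -0.28 over 28 genes, with 5 lower and 2 higher. Without LH 4 h replicate 2, saline replicate 1 or saline replicate 2, 3 members were lower. The lower members were Klk1b27, Igfbp2, Tcn2, Spon1 and Ctsh. Tcn2, the cobalamin carrier transcobalamin, read 11.87, 12.09 and 11.88 in saline and 11.03 and 10.83 after LH (difference -1.02, adjusted p = 0.0101). Spon1, the matrix protein spondin, read 11.65, 11.71 and 11.60 in saline and 10.91 and 10.54 after LH (difference -0.93, adjusted p = 0.0101). Both were apart from saline. The higher members were Serpinb1a and Serpinb9, intracellular inhibitors of leukocyte proteases, by 0.66 and 0.85 (adjusted p = 0.0103 and 0.0154), the latter not called without LH 4 h replicate 1. Fetub, a fetuin, differed by -0.65 without passing the test (adjusted p = 0.152).

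Restoration was then described for the genes that acyline itself had moved, since those had an untreated level to return to. Acyline alone left 13 genes lower (0.0845% of those tested) and 7 higher (0.0455%) than saline. This comparison and that of LH 4 h share the saline arrays. A gene was placed beyond saline where LH 4 h was called on the other side, on the acyline side where it was still called there, and at saline where the 95% interval of its difference lay within 1.5-fold either way. All others were unresolved. Of the 13 lowered genes, 9 were on the acyline side, 1 was at saline, 3 were unresolved and 0 were beyond saline. Of the 7 raised genes, 4 were on the acyline side, 1 was at saline, 1 was unresolved and 1 was beyond it. Of these 4, Amotl2 lay farther from saline at 4 h than with acyline.

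**Figure D4:**
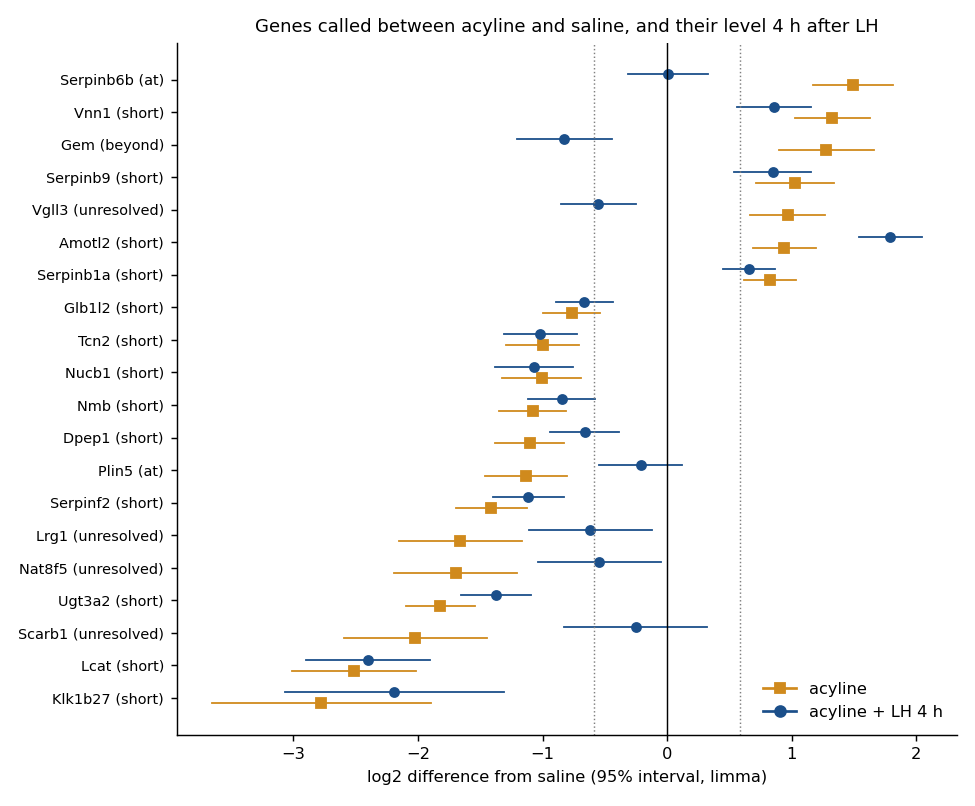
Difference from saline (log2, x axis) for the 20 genes called between acyline and saline (y axis, class in parentheses, where short stands for the acyline side), with squares for acyline, circles for LH 4 h and bars for 95% intervals from limma. Lcat and Tcn2 have squares and circles at nearly the same value, whereas the circle of Serpinb6b is at 0.01.

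The plot of acyline-responsive genes shows how far each had moved by 4 h. Lowered genes on the acyline side were Klk1b27, Lcat, Ugt3a2, Serpinf2, Dpep1, Nmb, Nucb1, Tcn2 and Glb1l2. Lcat differed from saline by -2.52 with acyline and by -2.40 at 4 h, and Tcn2 by -1.0 and -1.02. Serpinf2, encoding the plasmin inhibitor, read 8.12, 7.87 and 7.80 in saline, 6.56 and 6.48 with acyline and 6.96 and 6.67 at 4 h, all below saline. The test between LH 4 h and acyline was not passed for Lcat, Tcn2 or Serpinf2 (adjusted p = 0.832, 0.959 and 0.298). Plin5, a lipid droplet protein, was at saline: it read 8.11, 8.26 and 8.41 in saline, 7.23 and 7.02 with acyline and 8.24 and 7.84 at 4 h (95% interval -0.55 to 0.12). Scarb1, Nat8f5 and Lrg1 were unresolved, at -0.25, -0.55 and -0.62 from saline, because their intervals reached past 1.5-fold.

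Among genes raised by acyline, Serpinb6b returned to saline, with 7.57, 7.46 and 7.55 in saline, 9.10 and 8.95 with acyline and 7.35 and 7.72 at 4 h (95% interval -0.31 to 0.33). Gem, a small GTPase of the RGK family, went beyond saline. It read 7.05, 7.11 and 7.10 in saline, 8.63 and 8.10 with acyline, 8.20 and 8.61 at 1 h and 6.30 and 6.22 at 4 h. The 4 h values lay below all others (difference from saline -0.82, adjusted p = 0.0309, a call lost without any 1 LH 4 h or saline array). Vgll3, a transcriptional cofactor, differed from saline by 0.97 with acyline and by -0.55 at 4 h (adjusted p = 0.0467) but did not reach 1.5-fold at 4 h. Vnn1, Serpinb9 and Serpinb1a stayed above saline, as did Amotl2, which differed from saline by 0.94 with acyline and 1.79 at 4 h and was higher at 4 h than with acyline by 0.85 (adjusted p = 0.0389).

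The acyline calls that define these classes depended on the processing and on single arrays. At the level of probe sets 27 were lower and 8 higher with acyline. Without the filter 12 and 3 were called, with median centring 27 and 11, and with quantile normalization 28 and 11. Ordinary variances gave 0 and 0, a replicate block 0 and 0, and ordinary variances with unadjusted p 465 and 116. The counts were 8 and 0, 10 and 4, and 6 and 0 without saline replicates 1, 2 and 3, and 30 and 1 or 2 and 0 without acyline replicate 1 or 2. They were 119 and 24 or 123 and 24 without LH 1 h replicate 1 or 2, and 51 and 15 or 53 and 15 without LH 4 h replicate 1 or 2, since these arrays enter the pooled spread.

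Between 1 h and 4 h the change was mostly downward: 3 genes (0.0195%) were higher and 30 (0.195%) lower at 4 h than at 1 h. The higher genes were Slc16a3, Hvcn1 and 1700008P02Rik, the last outside the rule for named genes. The comparisons of 4 h with 1 h and with saline share the LH 4 h arrays. Genes below both the 1 h level and saline included Gem, Trp53inp1, Trim14, Tcp11l2, Eya1, Lifr, Klhl14 and Mertk, which lay between -2.15 and -1.30 from 1 h. Trim14, a gene of innate immune signaling, read 9.77, 8.98 and 9.47 in saline, 9.49 and 9.58 at 1 h and 7.92 and 8.0 at 4 h. Mertk, a receptor for engulfment of dying cells, read 9.29, 8.97 and 9.02 in saline, 9.51 and 9.39 at 1 h and 8.08 and 8.21 at 4 h. In both genes the 4 h values were below every other array, and the call of Trim14 against saline was lost without LH 4 h replicate 1. Rgs2, a regulator of G-protein signaling, read 8.78, 8.34 and 8.86 in saline, 10.20 and 8.95 at 1 h and 8.54 and 8.47 at 4 h, and its 4 h level was within the saline range (adjusted p = 0.802).

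The difference from saline at 4 h was tested against that of Sertoli IPs collected 4 h after follicle-stimulating hormone (FSH), which came from AMH-Cre: RiboTag mice given acyline for 3 days, against 4 days before LH. Hormone, Cre line, cell type and length of antagonist treatment cannot be told apart in this contrast. In limma fitted to 20 arrays, 101 genes (0.657%) had a higher and 117 (0.761%) a lower difference in the LH-treated Leydig IPs. In the Sertoli IPs themselves the same limma thresholds called 0 probe sets higher and 5 lower than saline at 4 h after FSH, against 2280 at an unadjusted p. Slc16a3 differed between the settings by 1.89 (adjusted p = 0.00777), Lifr by -1.37 (adjusted p = 0.000119) and Txnip by -1.37 (adjusted p = 0.00077). For Sik1 the contrast was 1.13 and was not called (adjusted p = 0.0571).

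**Figure D5:**
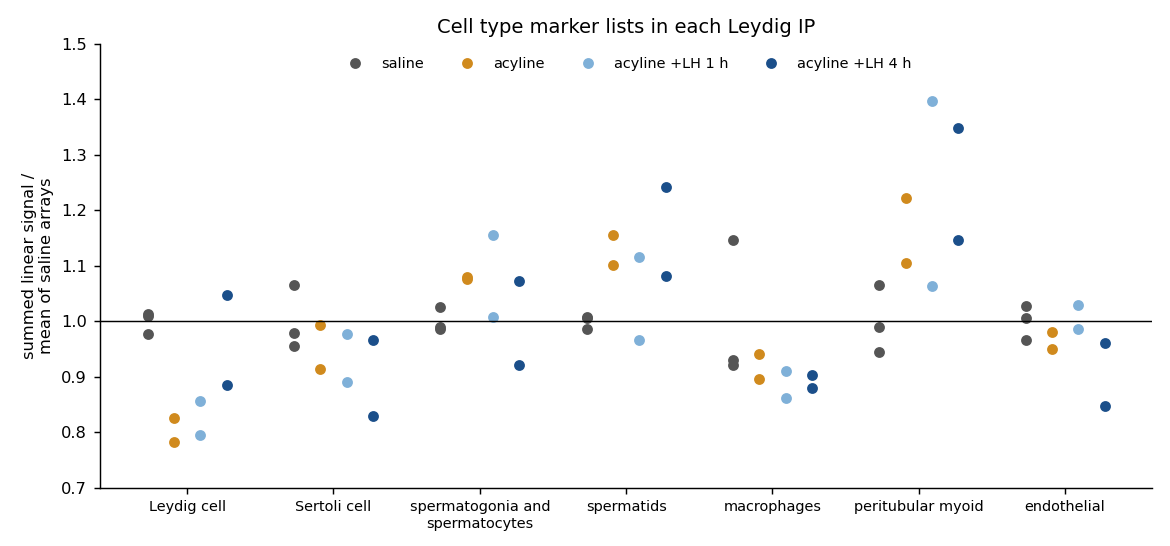
Summed linear signal of 7 cell type marker lists on each Leydig IP array, divided by the mean of the saline arrays (y axis), by list (x axis) and treatment (colour). Spermatid markers on the LH 4 h arrays were between 1.081 and 1.242, above the saline arrays, while Leydig markers were between 0.886 and 1.047. On the acyline arrays without LH, spermatid markers were between 1.102 and 1.156 and Leydig markers between 0.783 and 0.826.

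Markers of other testis cells moved with some of these results, as the plot of marker lists shows. The summed spermatid signal lay between 38563 and 39439 in saline and between 42315 and 48605 at 4 h, without overlap. With acyline alone it was already 43113 to 45225, within the 4 h range, so this shift was not particular to LH 4 h. Of 20 spermatid genes 2 were higher, among them Spata18 by 0.65 (adjusted p = 0.0202), 17 had a positive difference, and the median was 0.302. Neither was called without saline replicate 1, 2 or 3 or without LH 4 h replicate 1. Peritubular myoid markers relative to saline lay between 1.147 and 1.349, above the saline range of 0.945 to 1.065. They were also above it with acyline alone, at 1.104 to 1.221. Of the 9 myoid genes 0 were called in limma (2 at an unadjusted p under 0.05). Sertoli markers lay between 0.83 and 0.966, overlapping saline, and 1 of 21 was lower, Ctsl (difference -0.64, adjusted p = 0.0283), a call lost with median-centred arrays and without any 1 array other than those of LH 1 h. Of 19 spermatogonial and spermatocyte markers 1 was lower, Zbtb16. Of 12 macrophage and 7 endothelial genes none was called by limma (2 and 1 at an unadjusted p under 0.05), and the endothelial sum was 527 to 598 at 4 h against 601 to 639 in saline. Summed macrophage signal was 997 to 1024 at 4 h and 1044 to 1300 in saline. The genes above saline were also looked up in Sertoli IPs. In AMH-Cre: RiboTag saline mice, which share no array with the LH comparison, 68 of 153 measured genes (44.4%) were depleted at least 2-fold in the IP against the input. The same held for 22 of 165 genes below saline (13.3%) and for 2074 of 15081 tested (13.8%), and the 68 made up 3.28% of all depleted genes. Genes enriched at least 2-fold in the Sertoli IP were 15 of the 153 (9.8%), 45 of the 165 (27.3%) and 2332 of all 15081 (15.5%). The part of cell composition in the rises, those of the ribosomal genes included, or in the falls was not tested.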

How the data were processed

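RNA of anti-HA IPs from Cyp17iCre: RiboTag testes was hybridized by the authors to Affymetrix Mouse Gene 1.0 ST arrays, normalized with RMA and deposited as log2 values for 35556 probe sets. No source used here states the RMA version, and no raw array file was used. RMA draws arrays toward a common distribution, so a shift of most transcripts would be reduced.

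Contrasts were fitted with limma 3.58.1 in R 4.3.3 to 9 Leydig IPs with 1 mean per group, on 24461 probe sets with linear signal over 50 on at least 1 array. P-values were adjusted by Benjamini-Hochberg over all of them. Genes were called at an adjusted p below 0.05 together with a difference of 1.5-fold. Residual degrees of freedom were 5. The contrast with FSH used 20 IPs. The number of arrays limits precision. Of all deposited probe sets, 21789 name 1 gene, 1621 several and 12146 none in the table used. A gene was represented by its probe set with the highest mean. Gene lists were described by counts and medians only.

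Genes named were the 15 largest calls each way, called list members, up to 3 members of each list without a call, genes the study measured after LH, up to 8 genes per restoration class, and up to 8 called genes each way for the contrasts with FSH and with 1 h. Glb1l2, Nucb1, Amotl2 and Tcn2 complete a class, Cyp17a1 was added as a Leydig marker, and all 4 promoters were picked after values were seen. Members and lists were chosen with earlier results of these data known. The counts of depleted and enriched genes in Sertoli IPs and the list counts under other scalings and without each array were added after seeing the data.

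Alternatives were no filter, median centring, quantile normalization, a fit of the 2 groups alone, ordinary variances, unadjusted p, a replicate block, a fold of 2, and each array left out. In simulated data for LH 4 h against saline, 18% of 50 changed probe sets were recovered at 1.5-fold and 76% at 2-fold. Recovery was 84% at 3-fold and 100% at 4-fold, with 7 false calls. The simulation changed only 50 probe sets at each fold, drew them above a higher signal than the filter, and gave all groups 1 spread. A 1.5-fold change also sat at the calling threshold itself. These rates are therefore not those of the data. Some transcripts are not reported here.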

Additional observations from a re-analysis of the deposited data

Results flagged for a closer look

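The difference from saline at 4 h after the gonadotropin departed between Leydig IPs given LH and Sertoli IPs given FSH, by limma's test of the difference itself, for 101 genes higher and 117 genes lower in the Leydig contrast. Among genes called in LH 4 h against saline, those farthest apart upward were Mfsd2a (2.65), S1pr3 (2.09), Bhlhe40 (2.03), Slc16a3 (1.89), Amotl2 (1.73), Myc (1.73), Vpreb3 (1.45) and Osbpl6 (1.44), in log2 units. Those farthest apart downward were Cyp7a1 (-2.80), Lcat (-2.37), Klk1b27 (-2.36), Zbtb16 (-1.78), Ugt3a2 (-1.60), Tcp11l2 (-1.60), Fgl1 (-1.55) and Hpgd (-1.47). Cyp7a1 on both LH 4 h arrays and Osbpl6 on all 3 Leydig saline arrays were below a linear signal of 50, so their values are not measured sizes. Fgl1 was below it on 1 LH 4 h array. The hormone, the Cre line, the cell type and the length of acyline treatment (4 days before LH, 3 before FSH) change together in this contrast and cannot be told apart.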

How the results depend on the processing

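Against 385 probe sets higher and 427 lower than saline, fits without 1 array gave 178 to 556 higher and 155 to 465 lower. Without the filter 299 were higher and 271 lower, with median centring 678 and 278, with ordinary variances 175 and 89, and with a fold of 2 63 and 100. Ordinary variances with unadjusted p gave 484 and 637. Quantile normalization gave 365 and 370 and the 2 groups alone 305 and 341. Arrays of the same number did not deviate together (correlations -0.166 to 0.106), which shows no pairing by number but cannot exclude a shared experiment. The paper drew its LH serum and qRT-PCR samples from 2 independent experiments, and the labels do not assign arrays to them. With a replicate block, limma called 0 higher and 0 lower, against 5175 at an unadjusted p. Of 88 named calls, 81 held with median centring, 81 with quantile normalization, 71 without the filter, 45 without LH 4 h replicate 1 and 63 without replicate 2, and no named difference changed sign with a call. Of 42 named genes without a call, 12 were called under some alternative. In the restoration classes of probe sets lowered by acyline, 15 were on the acyline side (1 to 61 without 1 array, 8 without the filter), 3 at it (0 to 12, 0 without the filter), 9 unresolved (1 to 52, 4 without the filter) and 0 beyond (0 to 2). Of those raised, 4 were on it (0 to 8, 2 without the filter), 1 at saline (0 to 7, 2 with median centring), 1 unresolved (0 to 10, 0 without the filter, 2 with median centring) and 2 beyond (0 to 5, 0 without the filter, 4 with quantile normalization). The contrast with FSH called 466 probe sets, and 328, 474 and 456 without the filter, with median centring and with quantile normalization. The causes of these shifts were not tested.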
